A study of Homo sapiens with 48 samples.

Results

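The genes described here are 38 glycolytic enzymes and hypoxia response genes, taken by symbol from a table of read counts for 58302 genes. The list was drawn up because PFKFB4 and PPFIA4 rose most after XBP1 silencing, so the comparisons of Dox with 0 h in the shXBP1 cells chose it. Those comparisons are described below; the number of members the fit called is printed there beside the share of all genes called, and is no test of the list. RNA was sequenced from AMO1, a human multiple myeloma cell line derived from a plasmacytoma, carrying shRNAs that doxycycline (Dox) switches on. shIRE1 targets ERN1, the gene that encodes the ER stress sensor IRE1, and shXBP1 targets XBP1, the transcription factor downstream of it. shIRE1 clone 1 and shIRE1 clone 3 carry the shRNAs sh7, 8 and 9 together, and shXBP1 clone 1 and shXBP1 clone 18 carry sh4, 6 and 7. Each clone was grown from a single cell and picked for its depletion of the target, so each line is 1 clone. Every clone was sequenced at 0, 24, 48 and 72 h of 0.2 µg/ml Dox with 3 replicates per time, giving 48 libraries in 16 groups. No non-targeting shRNA was analysed here, so what Dox or any shRNA does on its own cannot be told apart from loss of the target.

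Glycolysis turns glucose into pyruvate and then, through lactate dehydrogenase, into lactate. Hypoxia-inducible factor (HIF) is a pair of a stabilised alpha subunit, encoded by HIF1A or EPAS1, and ARNT; prolyl hydroxylases such as EGLN1 mark the alpha subunit for destruction while oxygen is present. HIF binds the core letters ACGTG or GCGTG in hypoxia response elements and activates glucose transporters, most glycolytic enzymes, VEGFA and its own hydroxylase EGLN3. In plasma cells and myeloma, which secrete large amounts of antibody, glucose uptake and lactate output are known to be high.

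Promoters from the RefSeq table (build GRCh38.p14) were matched by symbol for 33 of the 38 genes. Of these 33, 30 held ACGTG or GCGTG on either strand in at least one promoter window running from 250 bases before to 50 bases after a start site, which is 90.9%, beside 52.4% of all 27305 genes in the table. ACGTG alone was in 21 of 33, or 63.6%, beside 24.9% of all genes. GCGTG was in 19 of 33, or 57.6%, beside 40.6%. The E-box CACGTG, which contains ACGTG on both strands and is also read by other factors, was in 9 of 33, or 27.3%, beside 8.77%. Genes with several listed start sites had more windows to match; counted per window, 67.2% of 61 held either motif, beside 48.4% of all 35116, with 40.98% beside 21.4% for ACGTG, 39.3% beside 36.5% for GCGTG and 14.8% beside 7.26% for CACGTG. A match here is letters only, not a measured binding site. The 30-base stretches below lie upstream of the start site and are shown for genes whose values are followed in every library below (VEGFA and NDRG1 have no entry in the table, nor do BNIP3L, SLC2A3 and ANKZF1, and the PGAM1 window held no match); capitals mark ACGTG or GCGTG on either strand (the other strand reads CACGT or CACGC), lower case is the rest, and each is written 5′ to 3′ on the gene's strand.
PFKFB4 (chr3:48556952-48556981, minus strand): tgagttgggcatGCGTGgtcggaggccggg
PPFIA4 (chr1:203026360-203026389, plus strand): cggcgctctcgtCACGTGcccggacccgag
ANKRD37 (chr4:185396676-185396705, plus strand): ctcCACGTGccagtgtttgtgtACGTGcgg
LDHA (chr11:18394471-18394500, plus strand): actcaCACGTGggttcccgCACGTccgccg
P4HA1 (chr10:73096935-73096964, minus strand): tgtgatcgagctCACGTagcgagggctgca
ENO2 (chr12:6914450-6914479, plus strand): acccgcgctcgtACGTGcgcctccgccggc
HK2 (chr2:74835009-74835038, plus strand): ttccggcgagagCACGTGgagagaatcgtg
HIF1A (chr14:61695297-61695326, plus strand): tggctgagagcgGCGTGggctggggtgggg
The stretches from PPFIA4, ANKRD37, LDHA and HK2 hold the E-box letters, those from P4HA1 and ENO2 hold ACGTG outside an E-box, and those from PFKFB4 and HIF1A hold only GCGTG.

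Libraries held 19177855 to 40767202 counted reads, so that 1 read was worth at most 0.0521 CPM (counts scaled by library size, adjusted by the TMM method), and 2.81 to 4.65% of reads were mitochondrial. Plasma cell markers had medians from 127 CPM (XBP1, itself a target here) to 7260 CPM (SDC1). Their lowest value in any library was 31.7 CPM, for XBP1, and IRF4 ranged from 303 to 1684 CPM. B cell, myeloid and stromal markers had medians of at most 0.659 CPM. Among T and NK cell markers, CD3E had a median of 12.5 CPM, CD8A of 2.47 and NKG7 of 0.329, while CD3D and CD2 had medians of 0. ERN1 fell in both shIRE1 clones, to 67.1% of 0 h in clone 1 and to 28.3% in clone 3 at 72 h, but the clones started apart, at 152 ± 2.37 and 438 ± 15.4 CPM (SD, n = 3). XBP1 fell to 20.0% of 0 h in shXBP1 clone 1 and to 22.3% in clone 18 at 72 h (24.1% without the library named next). The library labelled shXBP1 clone 18, 72 h, replicate 3 was nearer to shXBP1 clone 1 at 30 of 30 genes that tell these clones apart, so results of shXBP1 clone 18 are given with and without it. The gene not targeted moved too. At 72 h XBP1 was at 76.9% of 0 h in shIRE1 clone 1 and at 55.3% in clone 3. ERN1 was at 164% in shXBP1 clone 1 and at 82.0% in clone 18 (85.9% without that library).

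Before Dox, the genes covered a wide range of levels, compared here as CPM per kilobase of merged exons over the 12 libraries at 0 h. GAPDH, ENO1 and ALDOA were highest, with medians of 505, 391 and 315 CPM per kb, followed by TPI1 (234), PGK1 (148), PKM (144), LDHA (107) and GPI (106). The ranges over libraries overlapped between each of these neighbours, apart from TPI1 and PGK1, where the lowest TPI1 library (169.5) lay above the highest PGK1 library (164). Among isozymes, HK2 (median 31.5 CPM per kb) stood above HK1 (3.31), PFKM (58.2) above PFKP (33.6) and PFKL (11.98), ALDOA above ALDOC (48.5), and ENO1 above ENO2 (21.1). The regulators of phosphofructokinase differed too, with PFKFB3 at a median of 7.98 and PFKFB4 at 0.880 CPM per kb. HIF1A had a median of 18.8, EGLN1 of 4.80 and VEGFA of 5.88 CPM per kb. At the bottom, ADM, a vasodilator peptide, BNIP3, a mitophagy receptor, CA9, the cell-surface carbonic anhydrase, and EGLN3 had medians from 0 to 0.0622 CPM per kb, and EGLN3 never exceeded 1 read in a library. EGLN3, ADM and BNIP3 did not pass the count filter in any fit, and CA9 passed only in shXBP1 clone 18 and in the fit of all libraries, so 34 of the 38 genes were tested in each shIRE1 clone.

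**Figure D1:**
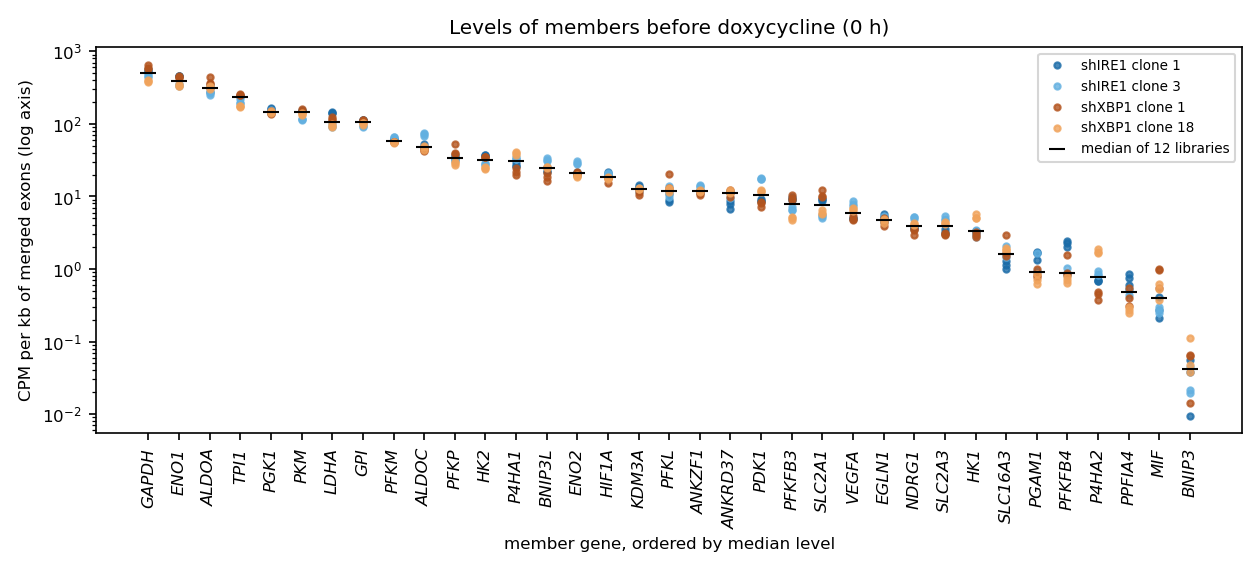
Level of each listed gene at 0 h in CPM per kilobase of merged exons (vertical log axis), one point per library coloured by clone, with the median of the 12 libraries as a bar; ADM, CA9 and EGLN3, which were at 0 in at least 1 library, are left out. GAPDH, ENO1 and ALDOA lead the order, and PFKFB4 and PPFIA4 lie near its lower end.

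The count table limits some genes. MIF, a secreted cytokine, had only 465 reads in all 48 libraries, and 94.1% of its exon length is overlapped by the opposite-strand gene MIF-AS1, which had 4499. PGAM1 had 3243 reads beside 3366 on 13 rows named as its pseudogenes, and BNIP3 had 229 beside 3619 on 38 rows. Pseudogene rows amounted to 53.2% of the TPI1 count and 40.5% of the GAPDH count. Exons of UFSP2 cover 40.3% of ANKRD37.

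The question of the shIRE1 comparisons is whether loss of IRE1 moved these genes and when. HIF1A mRNA rose while VEGFA, PFKFB4, LDHA, P4HA1, ANKRD37, NDRG1 and most enzymes of the lower pathway fell, and more members fell between 24 and 48 h than in either of the other steps. At 72 h, 7 of the 34 tested genes were higher and 20 lower in shIRE1 clone 1 than at 0 h, and the same counts were found in clone 3 (edgeR quasi-likelihood test, adjusted p under 0.05). Of all genes tested, 63.6% were called in clone 1 (31.1% lower) and 60.2% in clone 3 (30.5% lower). The median log2 fold change of the tested members was -0.28 in both clones, beside 0.02 over all genes in each. In both clones 15 members were lower, 2 higher (HIF1A and HK1), 5 moved in opposite directions, and PFKL and PFKP were called in neither. The share of all genes called in both clones was not counted.

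**Figure D2:**
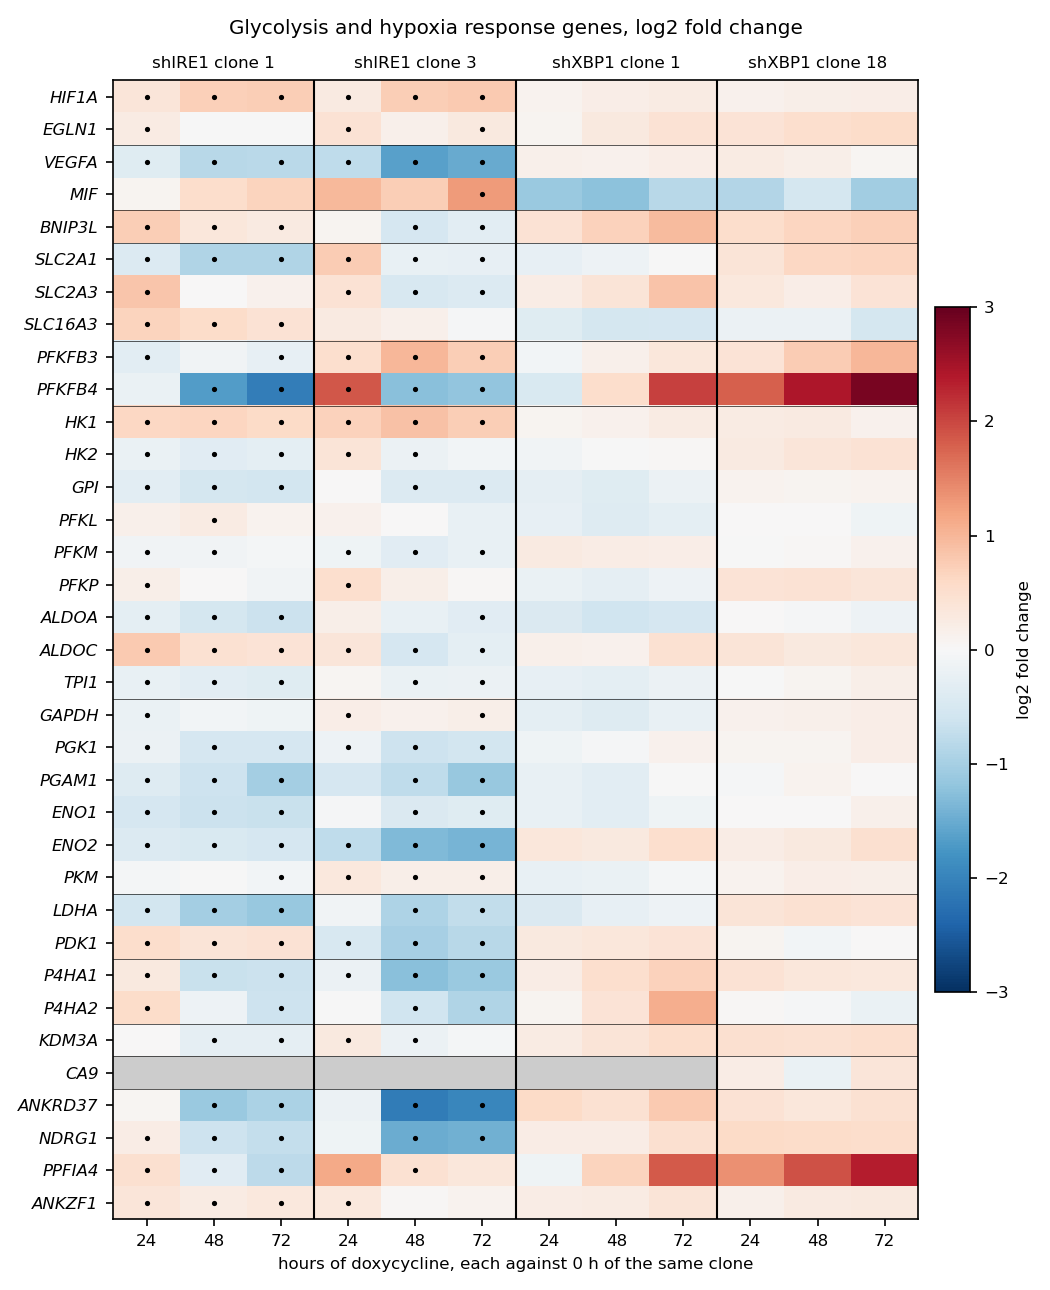
Log2 fold change of each tested gene (rows, grouped by role) at 24, 48 and 72 h of Dox against 0 h of the same clone (columns); red is higher, blue is lower, grey was not tested, and dots mark an adjusted p under 0.05 in the shIRE1 columns, the shXBP1 columns carrying no test. Blue prevails at 48 and 72 h in both shIRE1 clones. At 72 h PFKFB4 and PPFIA4 are the darkest red in the shXBP1 clones, which restates how the list was chosen.

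HIF1A, the oxygen-regulated subunit of HIF, rose in both shIRE1 clones. HIF1A in shIRE1 clone 1 measured 111, 106 and 98.4 CPM at 0 h, 146, 132 and 131 CPM at 24 h, 167, 166 and 184 CPM at 48 h, and 175, 177 and 178 CPM at 72 h. HIF1A in shIRE1 clone 3 measured 109, 106 and 105 CPM at 0 h, 135, 128 and 126 CPM at 24 h, 180.2, 184 and 174 CPM at 48 h, and 184, 179 and 193 CPM at 72 h. No library with Dox overlapped the libraries at 0 h. The log2 fold change at 72 h was 0.75 ± 0.05 (SE) in clone 1 (edgeR adjusted p = 2.83e-10) and 0.79 ± 0.05 in clone 3 (1.41e-09), and the responses differed by -0.05 ± 0.09 (adjusted p = 0.741). HIF1A in shXBP1 clone 1 measured 79.4, 93.4 and 93.6 CPM at 0 h, 108, 87.3 and 98.9 CPM at 24 h, 95.7, 109 and 107 CPM at 48 h, and 102, 107 and 109 CPM at 72 h. HIF1A in shXBP1 clone 18 measured 90.02, 94.8 and 93.6 CPM at 0 h, 103, 101 and 101 CPM at 24 h, 108, 110.0 and 95.3 CPM at 48 h, and 101, 106 and 111 CPM at 72 h. In both shXBP1 clones every 72 h library was above every 0 h library, with or without the library labelled clone 18, 72 h, replicate 3. The direction was the same as in the shIRE1 clones, and the highest value in any shXBP1 library was 111 CPM. The shXBP1 comparisons chose the list, so this is a description and no test. How many of all genes separated in the same way was not counted. EGLN1, the hydroxylase that senses oxygen, was higher at 24 h in both shIRE1 clones (0.25 ± 0.07 and 0.43 ± 0.08) and fell from 24 to 48 h by 0.26 and 0.28 on the log2 scale; at 72 h it was higher in clone 3 (0.29 ± 0.08) and not called in clone 1 (-0.02 ± 0.07).

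VEGFA, the secreted angiogenic factor and a classical HIF target, fell at every time in both shIRE1 clones. VEGFA in shIRE1 clone 1 measured 72.0, 70.7 and 71.9 CPM at 0 h, 53.8, 55.9 and 57.5 CPM at 24 h, 40.1, 40.8 and 39.1 CPM at 48 h, and 40.8, 41.6 and 39.8 CPM at 72 h. VEGFA in shIRE1 clone 3 measured 125, 113 and 105 CPM at 0 h, 65.8, 66.6 and 70.6 CPM at 24 h, 39.0, 36.8 and 36.0 CPM at 48 h, and 40.6, 41.5 and 38.9 CPM at 72 h. The clones began at different levels, and at 48 and 72 h the libraries of both lay between 36.0 and 41.6 CPM, with no overlap with 0 h. At 72 h the log2 fold change was -0.81 ± 0.05 in clone 1 (edgeR adjusted p = 2.17e-11) and -1.51 ± 0.07 in clone 3 (4.71e-11).

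ANKRD37, NDRG1 and P4HA1 moved little by 24 h, some upward, and fell between 24 and 48 h. ANKRD37 encodes an ankyrin-repeat protein, NDRG1 a stress-responsive protein, and P4HA1 the catalytic subunit of the collagen prolyl hydroxylase; all are known HIF targets. ANKRD37 in shIRE1 clone 1 measured 17.8, 15.2 and 19.3 CPM at 0 h, 19.4, 16.6 and 19.02 CPM at 24 h, 8.08, 7.80 and 8.26 CPM at 48 h, and 9.37, 9.18 and 8.74 CPM at 72 h. ANKRD37 in shIRE1 clone 3 measured 26.3, 21.5 and 26.8 CPM at 0 h, 24.7, 21.3 and 21.0 CPM at 24 h, 5.31, 5.69 and 6.59 CPM at 48 h, and 6.02, 6.06 and 7.35 CPM at 72 h. All 48 h and 72 h libraries were below all 0 h and 24 h libraries in both clones. Between 24 and 48 h ANKRD37 changed by -1.18 ± 0.09 in clone 1 (edgeR adjusted p = 1.37e-08) and -1.92 ± 0.11 in clone 3 (6.94e-09) on the log2 scale. NDRG1 in shIRE1 clone 1 measured 43.4, 42.3 and 45.0 CPM at 0 h, 50.0, 49.8 and 53.8 CPM at 24 h, 28.5, 27.3 and 29.2 CPM at 48 h, and 25.3, 27.6 and 26.3 CPM at 72 h. NDRG1 in shIRE1 clone 3 measured 62.5, 58.6 and 61.7 CPM at 0 h, 53.9, 55.1 and 59.0 CPM at 24 h, 22.7, 21.8 and 21.4 CPM at 48 h, and 22.8, 23.6 and 21.1 CPM at 72 h. Its 24 h libraries were all above 0 h in clone 1, while in clone 3 only the highest reached the 0 h range. P4HA1 in shIRE1 clone 1 measured 89.9, 80.5 and 80.4 CPM at 0 h, 107, 97.9 and 101 CPM at 24 h, 51.8, 51.8 and 54.5 CPM at 48 h, and 51.6, 53.3 and 55.7 CPM at 72 h. P4HA1 in shIRE1 clone 3 measured 109, 101 and 102 CPM at 0 h, 104, 89.1 and 86.5 CPM at 24 h, 42.2, 45.1 and 43.9 CPM at 48 h, and 45.7, 48.3 and 51.3 CPM at 72 h. P4HA1 rose by 0.28 ± 0.05 at 24 h in clone 1 (edgeR adjusted p = 6.93e-05), and at 72 h it was lower by a log2 fold change of -0.65 ± 0.05 in clone 1 and -1.12 ± 0.07 in clone 3.

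**Figure D3:**
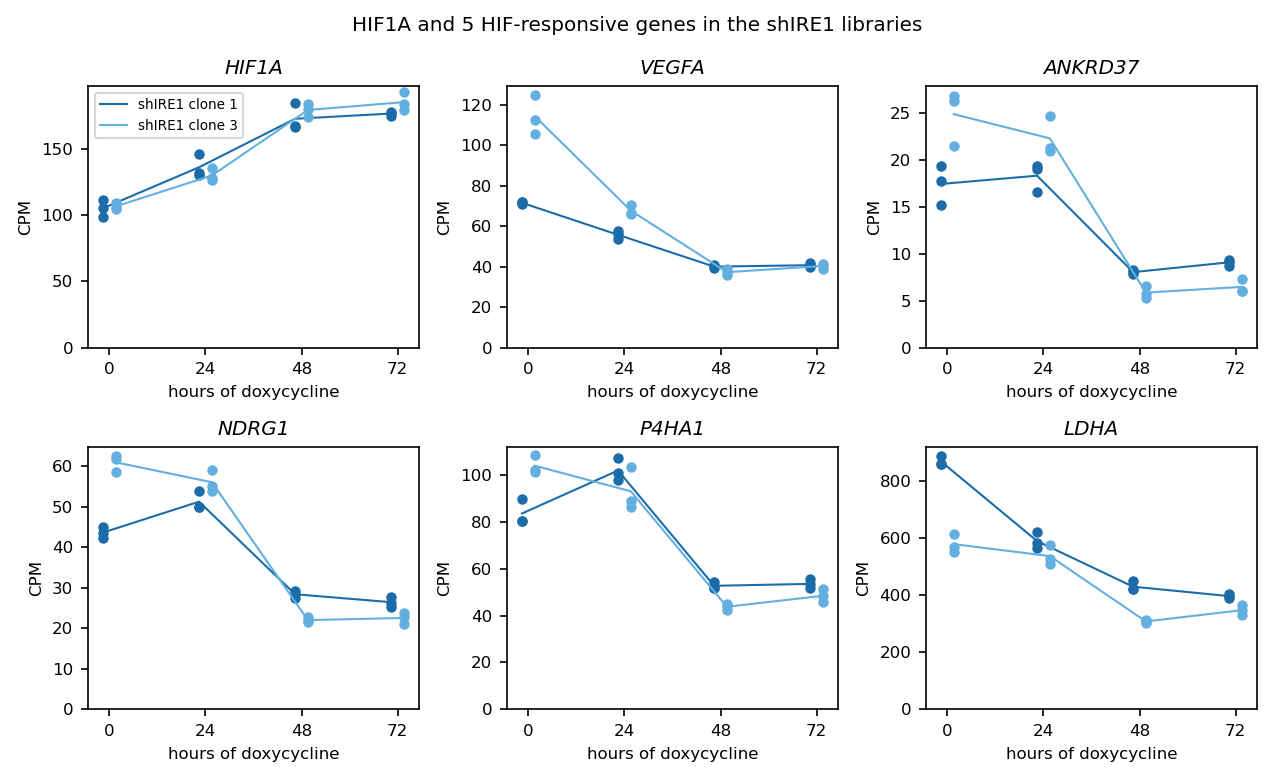
CPM (linear axis from 0) in every shIRE1 library against hours of Dox for HIF1A, VEGFA, ANKRD37, NDRG1, P4HA1 and LDHA; points are libraries, lines join the means of 3, and the clones are set slightly apart. HIF1A climbs in both clones, from at most 111 CPM at 0 h to at least 175 CPM at 72 h, while the other genes end below their 0 h libraries.

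The other HIF-responsive genes were less uniform. P4HA2, a second collagen hydroxylase, ended lower in both clones (-0.62 ± 0.11 and -0.89 ± 0.11 at 72 h), and KDM3A, a histone demethylase, was lower at 72 h in clone 1 (-0.28 ± 0.05) with -0.06 ± 0.06 in clone 3. BNIP3L, a mitophagy receptor, was higher at 72 h in clone 1 (0.28 ± 0.06) and lower in clone 3 (-0.31 ± 0.06). ANKZF1, which acts on stalled ribosomes, was higher in clone 1 at all times and in clone 3 at 24 h (0.31 ± 0.06). MIF was called only at 72 h in clone 3 (1.28 ± 0.52, edgeR adjusted p = 0.0422), on the few reads given above.

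Among glycolytic enzymes, those from GAPDH to PKM had lower medians than those upstream. At 72 h, 5 of 6 lower enzymes were lower in shIRE1 clone 1 and 4 of 6 in clone 3, where GAPDH and PKM were higher; their median log2 fold changes were -0.51 and -0.46. Of the 9 upper enzymes, 4 were lower and 2 higher in clone 1, and 5 lower and 1 higher in clone 3. Their medians were -0.10 and -0.22. Beside these counts, 31.1% of all genes tested were lower in clone 1 and 30.5% in clone 3. The lower enzymes include PGAM1 and GAPDH, whose counts are limited as described above. GPI (-0.56 ± 0.05 and -0.42 ± 0.06), ALDOA (-0.65 ± 0.08 and -0.34 ± 0.11), TPI1 (-0.35 ± 0.04 and -0.18 ± 0.06), PGK1 (-0.51 ± 0.03 and -0.54 ± 0.05) and ENO1 (-0.66 ± 0.05 and -0.37 ± 0.05) fell in both clones at 72 h. HK1, the housekeeping hexokinase, went the other way, from 22.2 ± 0.976 to 33.0 ± 0.761 CPM in clone 1 and from 21.97 ± 2.59 to 37.0 ± 1.43 CPM in clone 3 (SD, n = 3 per group).

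LDHA, which makes lactate from pyruvate, fell in both clones, further in clone 1. LDHA in shIRE1 clone 1 measured 889, 858 and 859.5 CPM at 0 h, 621, 583 and 566 CPM at 24 h, 420.1, 421 and 448 CPM at 48 h, and 389, 404 and 396 CPM at 72 h. LDHA in shIRE1 clone 3 measured 615, 551 and 569.9 CPM at 0 h, 575, 526 and 509 CPM at 24 h, 303, 312 and 308 CPM at 48 h, and 329, 346 and 366 CPM at 72 h. In clone 1 the fall was under way at 24 h, whereas in clone 3 the 24 h libraries still overlapped 0 h. At 72 h the log2 fold change was -1.13 ± 0.04 (edgeR adjusted p = 1.05e-14) in clone 1 and -0.75 ± 0.06 (1.67e-08) in clone 3. ENO2, the neuronal enolase, fell further in clone 3. ENO2 in shIRE1 clone 1 measured 92.9, 88.8 and 84.9 CPM at 0 h, 61.8, 67.0 and 72.8 CPM at 24 h, 68.3, 63.9 and 62.4 CPM at 48 h, and 64.7, 59.7 and 64.3 CPM at 72 h. ENO2 in shIRE1 clone 3 measured 131, 119.6 and 122 CPM at 0 h, 75.8, 72.1 and 72.6 CPM at 24 h, 48.8, 51.1 and 49.0 CPM at 48 h, and 48.9, 46.2 and 48.6 CPM at 72 h. The libraries with Dox were all below 0 h, and the 72 h change was -0.50 ± 0.06 in clone 1 and -1.39 ± 0.05 in clone 3. PGAM1, the mutase between PGK1 and the enolases, was counted at few reads. PGAM1 in shIRE1 clone 1 measured 4.28, 4.35 and 3.37 CPM at 0 h, 2.93, 3.21 and 3.09 CPM at 24 h, 2.87, 2.45 and 2.44 CPM at 48 h, and 2.14, 2.07 and 1.69 CPM at 72 h. PGAM1 in shIRE1 clone 3 measured 4.20, 2.38 and 2.30 CPM at 0 h, 3.16, 1.66 and 1.71 CPM at 24 h, 1.48, 1.74 and 1.99 CPM at 48 h, and 1.41, 1.19 and 1.47 CPM at 72 h. The 72 h libraries lay below the 0 h libraries in both clones, with log2 fold changes of -1.02 ± 0.14 and -1.14 ± 0.28.

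HK2, the inducible hexokinase, moved in opposite directions in the shIRE1 clones at 24 h. HK2 in shIRE1 clone 1 measured 218, 219 and 217 CPM at 0 h, 197, 184 and 192 CPM at 24 h, 178, 169 and 168 CPM at 48 h, and 177, 180.4 and 179.7 CPM at 72 h. HK2 in shIRE1 clone 3 measured 162, 165 and 169 CPM at 0 h, 218, 223 and 212 CPM at 24 h, 147, 146 and 147 CPM at 48 h, and 157, 157 and 161 CPM at 72 h. In clone 3 it rose at 24 h (0.39 ± 0.04) and was back near 0 h at 72 h (-0.08 ± 0.04, edgeR adjusted p = 0.149), while in clone 1 it was lower throughout. HK2 in shXBP1 clone 1 measured 205, 208 and 204 CPM at 0 h, 192, 199 and 195 CPM at 24 h, 199, 213 and 203 CPM at 48 h, and 206, 215 and 217 CPM at 72 h. HK2 in shXBP1 clone 18 measured 141, 147 and 148 CPM at 0 h, 178, 171 and 179 CPM at 24 h, 187, 189 and 187 CPM at 48 h, and 186, 181 and 216 CPM at 72 h. The last of these values, 216 CPM, is the library that resembles shXBP1 clone 1, whose own 72 h libraries ran from 206 to 217 CPM.

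PFKFB4, a bifunctional enzyme that sets the level of a fructose bisphosphate that activates phosphofructokinase and is not the one phosphofructokinase makes, gave the widest swings. PFKFB4 in shIRE1 clone 1 measured 13.8, 12.4 and 14.98 CPM at 0 h, 12.5, 9.85 and 13.9 CPM at 24 h, 5.06, 4.05 and 3.68 CPM at 48 h, and 3.61, 2.92 and 3.25 CPM at 72 h. PFKFB4 in shIRE1 clone 3 measured 5.10, 5.42 and 6.36 CPM at 0 h, 21.4, 22.1 and 18.2 CPM at 24 h, 2.31, 2.51 and 2.24 CPM at 48 h, and 2.70, 2.85 and 1.86 CPM at 72 h. In clone 3 every 24 h library was above every other library of the clone, and every later library was below 0 h. Its log2 fold change in clone 3 was 1.86 ± 0.13 at 24 h (edgeR adjusted p = 2.34e-08), -3.12 ± 0.14 from 24 to 48 h (3.52e-10) and -1.19 ± 0.16 at 72 h against 0 h (8.81e-06). In clone 1 it was -0.19 ± 0.12 at 24 h (0.165) and -2.08 ± 0.14 at 72 h (3.08e-10). PPFIA4, a liprin scaffold protein, rose at 24 h in both shIRE1 clones. PPFIA4 in shIRE1 clone 1 measured 8.18, 5.84 and 7.32 CPM at 0 h, 10.9, 8.00 and 10.7 CPM at 24 h, 6.17, 5.17 and 5.43 CPM at 48 h, and 4.57, 3.94 and 3.88 CPM at 72 h. PPFIA4 in shIRE1 clone 3 measured 4.24, 5.11 and 5.04 CPM at 0 h, 11.2, 11.7 and 9.02 CPM at 24 h, 7.26, 6.44 and 6.24 CPM at 48 h, and 7.19, 5.97 and 5.15 CPM at 72 h. At 72 h it was lower than at 0 h in clone 1 (-0.78 ± 0.15, edgeR adjusted p = 0.000159) and not called in clone 3 (0.34 ± 0.15, adjusted p = 0.0579).

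**Figure D4:**
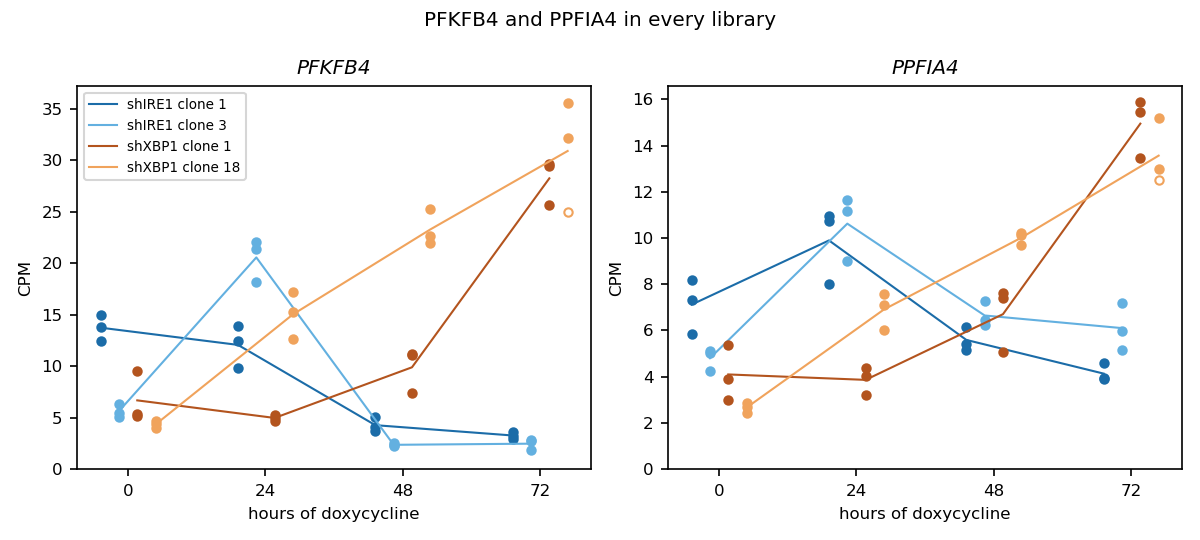
CPM of PFKFB4 and PPFIA4 (linear axis from 0) in all 48 libraries against hours of Dox; points are libraries, lines join the means of 3, clones are set slightly apart, and the open circle is the library labelled shXBP1 clone 18, 72 h, replicate 3. Both genes end at 12.5 CPM or more in the shXBP1 clones, above every 72 h library of the shIRE1 clones.

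In the shXBP1 clones, PFKFB4 and PPFIA4 were higher at 72 h than at 0 h, and their rise after Dox is what put this list together. PFKFB4 in shXBP1 clone 1 measured 5.12, 9.56 and 5.33 CPM at 0 h, 4.64, 4.99 and 5.27 CPM at 24 h, 7.35, 11.2 and 11.1 CPM at 48 h, and 29.4, 29.6 and 25.7 CPM at 72 h. PFKFB4 in shXBP1 clone 18 measured 4.36, 3.97 and 4.67 CPM at 0 h, 17.2, 12.6 and 15.2 CPM at 24 h, 25.3, 22.6 and 21.96 CPM at 48 h, and 35.5, 32.1 and 25.0 CPM at 72 h. At 24 h every clone 18 library was above its 0 h libraries, whereas no clone 1 library was. The log2 fold change at 72 h was 2.05 ± 0.22 in clone 1 and 2.84 ± 0.15 in clone 18, or 2.97 ± 0.13 without the library labelled 72 h, replicate 3. PPFIA4 in shXBP1 clone 1 measured 3.92, 5.37 and 3.00 CPM at 0 h, 3.204, 4.36 and 4.02 CPM at 24 h, 5.08, 7.40 and 7.64 CPM at 48 h, and 15.9, 15.5 and 13.5 CPM at 72 h. PPFIA4 in shXBP1 clone 18 measured 2.68, 2.86 and 2.43 CPM at 0 h, 7.11, 6.03 and 7.58 CPM at 24 h, 9.69, 10.2 and 10.1 CPM at 48 h, and 15.2, 12.98 and 12.5 CPM at 72 h. It followed PFKFB4 in timing, with 72 h changes of 1.83 ± 0.20 and 2.35 ± 0.13 (2.40 ± 0.13 without that library). Among the other members, BNIP3L was at 0.94 ± 0.11 in clone 1 and 0.70 ± 0.07 in clone 18 at 72 h (0.72 ± 0.07 without that library). KDM3A was at 0.53 ± 0.09 and 0.50 ± 0.06 (0.52 ± 0.06), ANKRD37 at 0.79 ± 0.09 and 0.47 ± 0.08 (0.39 ± 0.07), and NDRG1 at 0.48 ± 0.08 and 0.54 ± 0.11 (0.70 ± 0.05), with the value without that library in parentheses. VEGFA was at 0.20 ± 0.05 and 0.05 ± 0.09 (0.17 ± 0.06), and LDHA at -0.16 ± 0.08 and 0.40 ± 0.06 (0.46 ± 0.06). P4HA2 differed between the clones, with 1.09 ± 0.11 in clone 1 and -0.19 ± 0.18 in clone 18 (0.06 ± 0.09). These contrasts chose the list, so nothing is read from the counts of calls that follow. In clone 1, 7 members were higher and 9 lower at 24 h beside 26.7% of all genes called, 13 and 8 at 48 h beside 32%, and 18 and 3 at 72 h beside 33.6%. In clone 18, 9 were higher and 0 lower of 35 tested at 24 h beside 1.59% (17 and 0 beside 4.78% without the library), and 15 and 0 at 48 h beside 5.78% (19 and 0 beside 12.9%). The total of 16 in clone 1 at 24 h was 9 without 24 h replicate 3, and the totals of 9 and 15 in clone 18 were 6 and 9 without 0 h replicate 2; the second was also 9 without 48 h replicate 1. At 72 h in clone 18, 16 were higher and 1 lower beside 9.96% (19 and 0 beside 7.57% without the library). The median log2 fold change was 0.22 in clone 1 and 0.30 in clone 18 at 72 h (0.29 without the library).

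The steps in time were then compared within the shIRE1 clones. At 24 h, 14 of 34 members were higher and 14 lower in clone 1, beside 61.4% of all genes called, and 15 higher and 6 lower in clone 3, beside 46.2%; medians were 0.04 and 0.19. Leaving out shIRE1 clone 3, 24 h, replicate 1 gave 16 higher and 8 lower in clone 3, beside 48%. At 48 h, 8 were higher and 18 lower than at 0 h in clone 1, beside 65.4%, and 5 higher and 21 lower in clone 3, beside 63.2%. These shares of all genes at 24 and 48 h count both directions together, so they give no baseline for the split into higher and lower. Between 24 and 48 h, 20 members fell and 2 rose in clone 1, beside 14.3% of all genes lower and 16% higher, and 26 fell and 2 rose in clone 3, beside 17.4% and 17.2%. HIF1A and PFKFB3 were the 2 that rose in both, 20 fell in both, and none moved in opposite directions. The matching shares of all genes were not counted for both clones together. The median change over this interval was -0.22 in clone 1 and -0.44 in clone 3, beside 0.01 and -0.01 over all genes. From 48 to 72 h no member was called in either clone by edgeR, beside 0.869% and 0.936% of all genes. An unadjusted edgeR p under 0.05 was found for 6 of 34 in clone 1 and 9 of 34 in clone 3. The share of all genes under that unadjusted threshold was not counted, and the shares above are for adjusted p. DESeq2 called 0 and 1, and limma on the deposited log2 values 1 and 0. The comparisons share libraries: the 24 h libraries enter both the first and the second step.

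The shIRE1 clones were next compared with each other. At 0 h, 13 members were higher and 11 lower in clone 1 than in clone 3 (35 tested in the fit of all 48 libraries), beside 40.6% of all genes called. PFKFB4 was higher in clone 1 by 1.28 ± 0.18 on the log2 scale (edgeR adjusted p = 2.2e-07), SLC2A1 by 0.75 ± 0.08 (2.46e-10) and LDHA by 0.59 ± 0.06 (9.65e-10). PDK1, the mitochondrial kinase that inhibits pyruvate dehydrogenase, was lower in clone 1, with a log2 difference of -0.98 ± 0.07 (4.95e-14), and so was VEGFA (-0.68 ± 0.07, 4.48e-11). HIF1A did not pass (-0.02 ± 0.07, 0.85). ERN1 itself was lower in clone 1 at 0 h by a log2 difference of -1.52 ± 0.05, and its part in these differences was not tested.

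The response to Dox also differed between the clones, for 22 of 35 members at 24 h, 16 at 48 h and 17 at 72 h, beside 28.2, 30.8 and 27.5% of all genes. These differences share the 0 h libraries with each other and with the comparison of the clones at 0 h. SLC2A1, the main basal glucose transporter, went from 59.4 ± 1.87 to 44.9 ± 2.95 CPM at 24 h in clone 1 and from 35.4 ± 1.78 to 60.0 ± 2.29 CPM in clone 3 (SD, n = 3 per group), then ended at 32.0 ± 1.55 and 29.8 ± 2.35 CPM at 72 h. PDK1 went from 132 ± 5.03 to 179 ± 2.33 CPM at 72 h in clone 1 and from 261 ± 3.24 to 148 ± 10.9 CPM in clone 3. PFKFB3, another enzyme of the PFKFB family, went from 56.8 ± 2.37 to 47.8 ± 1.34 CPM at 72 h in clone 1 and from 41.03 ± 2.002 to 68.8 ± 4.90 CPM in clone 3. SLC2A3, a high-affinity glucose transporter, was higher at 24 h in both clones (0.82 ± 0.07 and 0.43 ± 0.06) and ended at 0.12 ± 0.08 in clone 1 and -0.40 ± 0.06 in clone 3. SLC16A3, the lactate exporter, was higher in clone 1 (0.43 ± 0.11 at 72 h) and not called in clone 3 (-0.03 ± 0.16, edgeR adjusted p = 0.874). VEGFA, ANKRD37, NDRG1, P4HA1 and ENO2 fell further in clone 3 at 72 h, by log2 differences between the responses of 0.69 ± 0.09, 1.01 ± 0.15, 0.71 ± 0.12, 0.46 ± 0.14 and 0.88 ± 0.08. LDHA and PFKFB4 fell further in clone 1, with differences of -0.39 ± 0.09 and -0.89 ± 0.28. HIF1A, HK1, PGK1 and PGAM1 showed no called difference between the clones at any time.

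**Figure D5:**
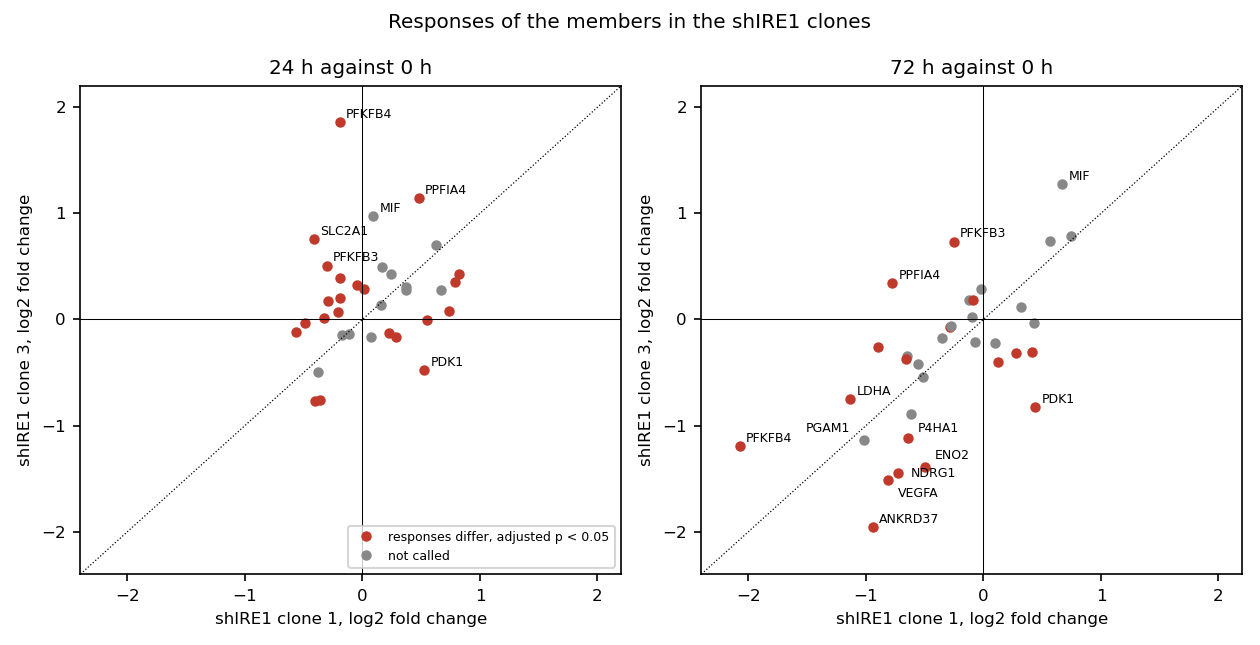
Log2 fold change against 0 h in shIRE1 clone 1 (horizontal) and clone 3 (vertical) at 24 and 72 h, one point per member tested in both; red points differed between the clones with an adjusted p under 0.05, and the dotted line marks equal responses. PFKFB4 lies farthest from that line at 24 h, and at 72 h most points lie at the lower left while PDK1 and PFKFB3 lie off it on opposite sides.

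Genes of the same pathways outside the list were counted in the same fits at 72 h, where 63.6% of all genes were called in clone 1 and 60.2% in clone 3. Of glycolysis enzymes and transporters outside it, 10 of 22 tested were higher and 6 lower in clone 1, and 7 higher and 7 lower in clone 3, with medians of 0.15 and -0.10. Of other HIF and hypoxia response genes, 9 of 28 were higher and 11 lower in clone 1, and 8 higher and 11 lower of 27 in clone 3. Genes of pyruvate entry into mitochondria gave 5 higher and 4 lower of 11, and 2 and 6. Those of the pentose phosphate pathway gave 2 higher and 5 lower of 8 in each clone, and other oxygen sensors and HIF subunits 3 and 2 of 11, and 2 and 4. The 3 largest falls shared by both clones were MAFF, a small MAF factor (-1.47 ± 0.12 and -2.06 ± 0.12), INSIG2, which retains the sterol sensor in the ER (-1.16 ± 0.09 and -1.43 ± 0.10), and SLC16A7, a monocarboxylate transporter (-0.78 ± 0.06 and -1.0004 ± 0.07). The 3 largest shared rises were of genes near the detection limit. FBP1, the gluconeogenic bisphosphatase, changed by 1.92 ± 0.36 and 1.83 ± 0.55 on the log2 scale (SE). It reached 0.603 ± 0.0957 and 0.429 ± 0.159 CPM at 72 h (SD, n = 3 per group). PGF, a relative of VEGFA, changed by 1.01 ± 0.35 and 1.72 ± 0.48 and reached 0.452 ± 0.127 and 0.362 ± 0.0614 CPM. The next largest shared rise had a mean log2 of 1.36, beside 1.37 for PGF. It was of a gene above that limit, at 17.0 ± 0.308 and 18.8 ± 0.447 CPM at 72 h.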

How the data were processed

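Bulk RNA-seq of AMO1 cells was read from 2 deposited tables. Raw counts per gene were used as the authors deposited them, and the second table holds log2 CPM values with TMM scaling, which the authors deposited for 18401 genes. The submitters' processing notes name GSNAP, R 4.1.3, edgeR 3.32.1 and limma 3.46.0 and the builds GRCh37 and hg19. Whether counting used strand is not given in the sources used here. Replicates are described as biological triplicates grown in separate flasks of one clone.

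Groups followed the labels, with times taken in hours from the treatment label. The main test was edgeR 4.0.16 (quasi-likelihood, TMM, filterByExpr with a minimum count of 10, Benjamini-Hochberg adjustment over all genes tested, threshold 0.05), fitted on the 12 libraries of a clone with one mean per time. Differences between the shIRE1 clones were fitted on all 48 libraries. Alternatives used DESeq2 1.42.0 and limma 3.58.1 in R 4.3.3, other scalings, filters and sets of libraries. CPM were scaled by TMM. Merged exon lengths, overlaps and pseudogene names came from GENCODE for a GRCh38 assembly, so they are approximate and no gene coordinates are given from it. Scripts were tested on simulated counts. The members and pathway lists were chosen with earlier results of these data known. All 38 members could be named; values in every library were given for PFKFB4, PPFIA4, HIF1A and HK2 and for members called in both shIRE1 clones at 72 h in the same direction with at least a 2-fold change in one, and outside the list the 3 largest shared rises and falls were to be named, of which 1 is not reported here. The depth per library bounds precision at low counts, and p-values measure the spread between flasks.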

Additional observations from a re-analysis of the deposited data

Results flagged for a closer look

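Some members moved in opposite directions in the shIRE1 clones, each called within its clone and with a called difference between the responses (edgeR, fit of all 48 libraries). Differences are given as the log2 response of clone 1 minus that of clone 3. How many of all genes moved in opposite directions was not counted. At 24 h they were -1.17 for SLC2A1, -0.82 for PFKFB3, -0.59 for HK2 and -0.40 for GAPDH, which were lower in clone 1 and higher in clone 3, and 1.00 for PDK1 and 0.45 for P4HA1, which were the other way round. At 48 h they were 0.82 for BNIP3L, 0.93 for ALDOC and 1.36 for PDK1, higher in clone 1 and lower in clone 3, and -0.81 for PPFIA4, which was lower in clone 1 and higher in clone 3. At 72 h they were 0.58 for BNIP3L, 0.71 for ALDOC and 1.26 for PDK1, higher in clone 1 and lower in clone 3, and -0.995 for PFKFB3 and -0.29 for PKM, lower in clone 1 and higher in clone 3. PDK1 was among them at all 3 times, but the 3 differences share the same 0 h libraries, so they are not separate observations. ERN1 at 0 h was 152 CPM in clone 1 and 438 CPM in clone 3, and its part in these differences was not tested.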

How the results depend on the processing

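The alternatives were other tools (DESeq2, limma on the deposited log2 values), RLE scaling, no filter on low counts, all 48 libraries or only the 6 compared in a fit, a replicate block, and each library left out in turn. For single members, 1360 values kept direction and side of the threshold outside the left-out libraries, 32 lost the call, 19 gained one and 12 changed sign. With 1 library left out, 1191 kept both, 52 lost the call, 16 gained one and 33 changed sign. The cause of these changes was not tested.

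Median log2 fold changes of the members moved in shIRE1 clone 1 to -0.000982 at 24 h (6 libraries), to -0.14 (48 libraries), -0.26 (limma) and -0.27 (6 libraries) at 48 h and to -0.35 at 72 h (no filter). In shIRE1 clone 3 they moved to 0.26 at 24 h (no filter) and to -0.34 (48 libraries), -0.32 (limma), -0.21 (no filter) and -0.34 (6 libraries) at 48 h. In shXBP1 clone 18 they moved to 0.22 at 48 h (6 libraries) and to 0.20 (limma) and 0.21 (no filter) at 72 h. Between 48 and 72 h, limma called 1 member and the unfiltered fit 2 in shIRE1 clone 1, and DESeq2 called 1 and the unfiltered fit 2 in clone 3. At 24 h the 6-library fit called 5 members in shXBP1 clone 1, and in shXBP1 clone 18 the counts were 17 (48 libraries), 15 (DESeq2), 15 (no filter) and 17 (6 libraries), beside 9.

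With 1 library left out, the median ran from -0.019 to 0.026 in shIRE1 clone 1 and from 0.12 to 0.26 in shIRE1 clone 3 at 24 h, from -0.11 to 0.012 at 24 h and 0.088 to 0.17 at 48 h in shXBP1 clone 1, and from 0.19 to 0.24 at 48 h in shXBP1 clone 18. Counts ran from 9 (without 24 h replicate 3) to 16 in shXBP1 clone 1 at 24 h. In shXBP1 clone 18 the lowest counts came without 0 h replicate 2, with 6 at 24 h and 9 at 48 h (also 9 without 48 h replicate 1), and the highest without 72 h replicate 3, with 17 and 19. Without shIRE1 clone 3, 24 h, replicate 1, its 24 h count was 24 and its median 0.26.

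The values that changed sign were not called in the fits reported. KDM3A in shIRE1 clone 1 at 24 h went to -0.0123 (DESeq2 and RLE), -0.00783 (limma) and -0.000982 (6 libraries), P4HA2 in clone 3 at 24 h to 0.0013 (48 libraries) and 0.0153 (no filter), and SLC16A3 in clone 3 at 72 h to 0.0109 (6 libraries). At 48 h in clone 1, PFKP went to -0.00908 (DESeq2), -0.0016 (6 libraries) and -0.00899 (RLE), and SLC2A3 to -0.00348 (DESeq2) and -0.00314 (RLE). With 1 library left out, the ranges in clone 1 were -0.0272 to 0.151 for ANKRD37, -0.0313 to 0.0491 for KDM3A and -0.181 to 0.419 for MIF at 24 h, -0.0609 to 0.0305 for EGLN1, -0.0737 to 0.075 for PFKP and -0.0355 to 0.0744 for SLC2A3 at 48 h, and -0.0621 to 0.0222 for EGLN1 and -0.134 to 1.01 for MIF at 72 h. In clone 3 they were -0.0785 to 0.00699 for ENO1, -0.0473 to 0.0842 for GPI and -0.0489 to 0.0376 for P4HA2 at 24 h, -0.115 to 0.131 for PFKL at 48 h, and -0.0365 to 0.112 for PFKP and -0.203 to 0.148 for SLC16A3 at 72 h.

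Replicate numbers did not pair the libraries: deviations of same-numbered libraries correlated from -0.638 to 0.457. With the replicate block, 26 members were called at 72 h in each shIRE1 clone (27 without it), 19 in clone 3 at 24 h (21 without it) and 11 in shXBP1 clone 1 at 24 h (16 without it), and no other count moved by a larger factor. EGLN3, ADM, BNIP3, CA9, MIF and PGAM1 had few reads, which limits what can be said of them. For MIF an overlapping gene, and for BNIP3 and PGAM1 pseudogene rows, limit the counts as described above. Whether depth or these overlaps kept the counts low was not tested.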
